A study of Rattus norvegicus with 12 samples.

Results

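Neurofilaments, synucleins, tau and MAP1B fill the long axons of retinal ganglion cells, and the genes described here are the 9 that encode such proteins, chosen by name: Nefl, Nefm, Nefh, Ina, Prph, Sncb, Sncg, Mapt and Map1b. They are 9 of the 30560 genes in the deposited table, each name occurs once, and all 9 passed the filter on low counts with 504 to 45781 counts in a library. They were followed in retinas of rats whose vitreous had received 2 µL of 20 mM NMDA (6 rats, NMDA 1 to NMDA 6) or 2 µL of PBS (6 rats, PBS 1 to PBS 6), with 1 library of total RNA per rat. NMDA activates a class of glutamate receptors and injures inner retinal neurons by overstimulation, and the series is titled as a glaucoma model. Both groups were injected, and strain, sex, age and the time from injection to collection are not given in the sources used here.

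Neurofilaments are heteropolymers of a light, a medium and a heavy subunit, joined in the adult nervous system by alpha-internexin (Ina) and, in some projection neurons, by peripherin (Prph), and they set the calibre of axons. Synucleins are small presynaptic proteins that bind membranes, and gamma-synuclein is widely used as a marker of retinal ganglion cells. Tau (Mapt) and MAP1B bind and stabilise microtubules in axons, and both are regulated by phosphorylation.

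Of the 9 genes, 7 fell with NMDA and none rose (edgeR quasi-likelihood test, two-sided, Benjamini-Hochberg adjusted over all 16260 genes tested, threshold 0.05). Over all genes tested, 37.9% passed, 17.5% lower and 20.4% higher with NMDA. Rises made up 53.8% of those calls, and 64.6% with scaling by library size only, under which the same 7 of the 9 genes fell. The falls were 2.79-fold for Nefl, 2.48-fold for Sncg, 2.44-fold for Nefm, 1.95-fold for Ina, 1.89-fold for Prph, 1.73-fold for Nefh and 1.26-fold for Sncb. The median log2 fold change (NMDA minus PBS) of the 9 genes was -0.92, against 0.01 over all genes tested. Nefl, Sncg and Nefm fell at least 2-fold, as did 1.48% of all genes tested. Without NMDA 1 or without NMDA 3 that count was 5, with Ina at -1.08 in both and Prph at -1.08 and -1.04, and with limma voom it was also 5. In 5 genes every NMDA library lay below every PBS library, which held for 8.66% of all genes tested. Without NMDA 1, of the 9 genes 8 were apart in this way. Both 1.48% and 8.66% were computed with all libraries, and falls over all genes also grew without NMDA 1, from 17.5% to 19.7%. Mapt and Map1b did not pass, and in each of them 1 NMDA library stood far above the other NMDA libraries. Since these are whole retinas, fewer ganglion cells and less RNA per cell cannot be told apart.

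Total counts ran from 26298655 to 34022023 in the NMDA libraries and from 16415611 to 31057161 in the PBS libraries. Of 12 rod markers, 8 fell and none rose, and they summed to 37343 to 53298 CPM in NMDA and 51694 to 55030.4 CPM in PBS. CPM are a gene's counts scaled to the size of the library, with TMM factors. Of 18 ganglion cell markers outside the 9 genes, 15 fell and 1 rose, and their summed level was 415 to 635 CPM in NMDA and 800.3 to 855 CPM in PBS. Markers of amacrine cells fell in 13 of 14 and those of horizontal cells, which also hold neurofilaments, in 4 of 9, with sums of 1267 to 1711 against 2037 to 2144 CPM and of 421 to 671 against 665 to 811 CPM in NMDA and PBS. Of 11 bipolar cell markers, 2 fell and 1 rose (1591 to 2105 CPM in NMDA, 1895 to 2106 CPM in PBS). Of 10 Mueller glia markers, 6 fell and 2 rose (3932 to 4998 CPM in NMDA, 5138 to 6968 CPM in PBS). Microglial markers rose in 11 of 12 and fell in 1 (129.9 to 258 CPM in NMDA, 69.9 to 110.1 CPM in PBS). Of 5 tested oligodendrocyte markers, 2 fell and 1 rose. Beside these counts, 17.5% of all genes tested were lower and 20.4% higher. The part of these cell types in the changes of the 9 genes was not tested.

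**Figure D1:**
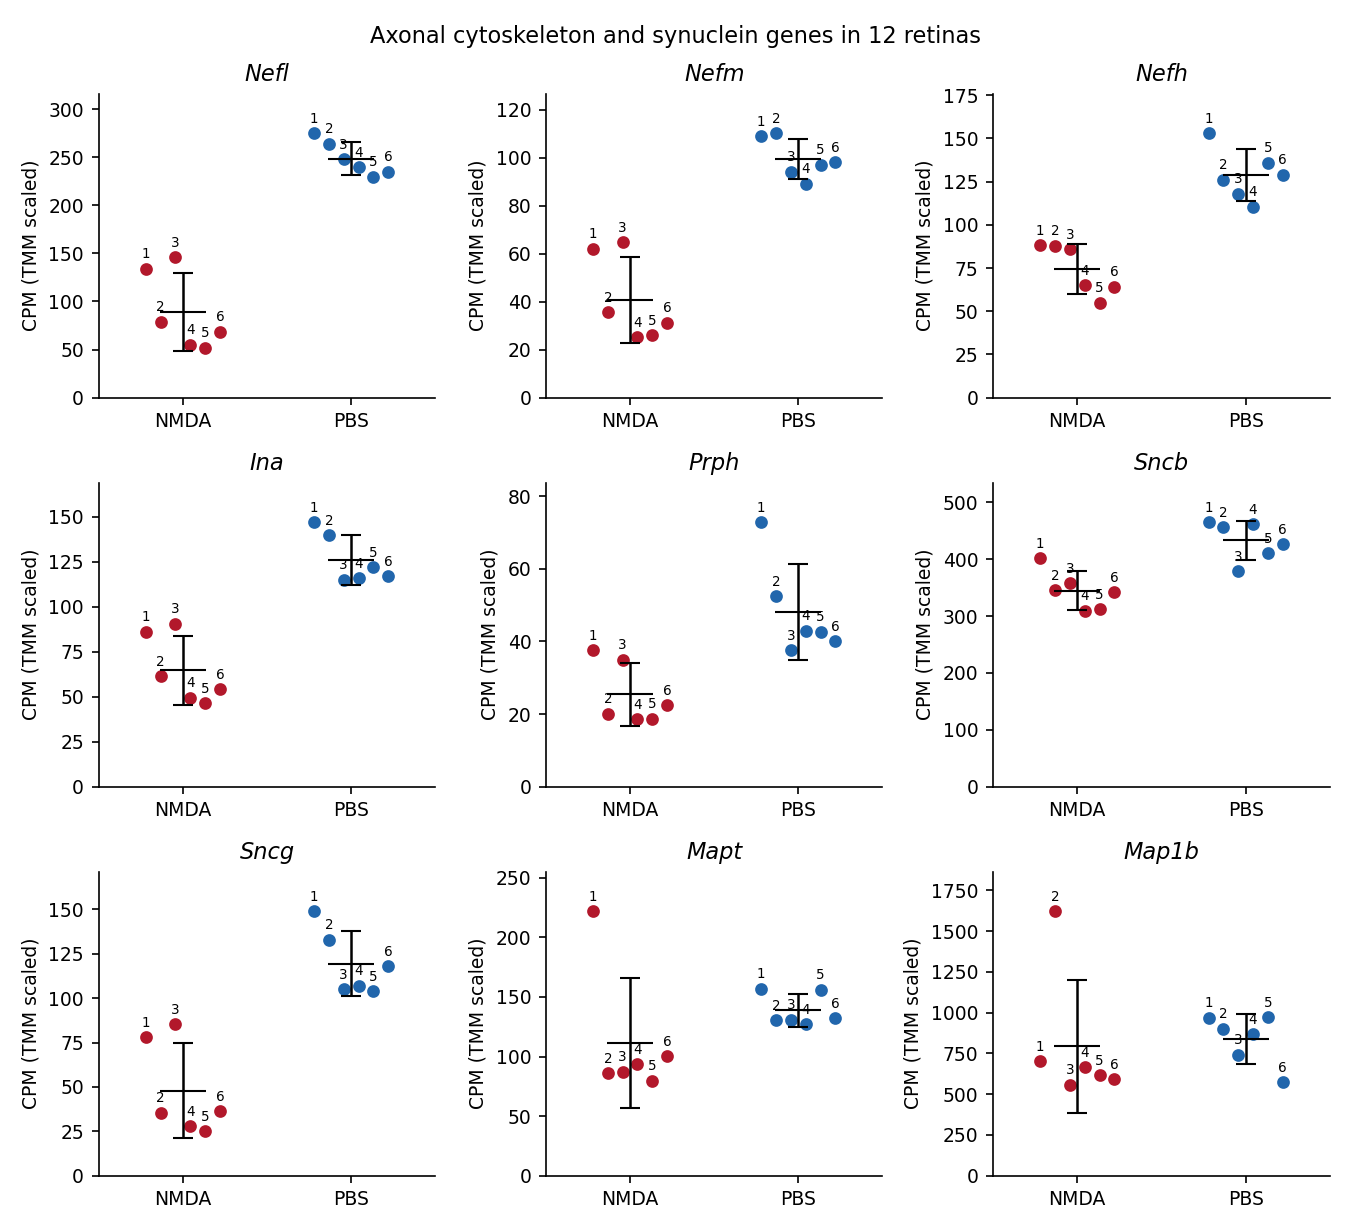
Level of each of the 9 genes in CPM (counts scaled to library size, with TMM factors) in the 6 NMDA and the 6 PBS libraries, with library numbers beside the points and bars giving mean and SD. NMDA 1 and NMDA 3 are the highest NMDA libraries for Nefl, Nefm, Ina, Prph, Sncb and Sncg, while Mapt is highest in NMDA 1 (222 CPM) and Map1b in NMDA 2 (1623 CPM).

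Nefl encodes the light subunit, on which the neurofilament is built (ENSRNOG00000013658, chromosome 15, 42301916 to 42305793, in the coordinates of the deposited table, whose build is not given in the sources used here). Its lowest, median and highest levels were 51.8, 73.7 and 146 CPM with NMDA and 229.9, 244 and 275 CPM with PBS. The groups did not overlap, and even NMDA 3, the highest NMDA library, stood below PBS 5, the lowest PBS library. The log2 fold change was -1.48 ± 0.25 (SE, 95% interval -2.03 to -0.93, adjusted p = 0.000872 by edgeR), the 42nd lowest value among the genes tested.

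Nefm, the gene of the medium subunit (ENSRNOG00000013916, chromosome 15, 42360454 to 42365755), lies 54660 bases from Nefl with no other gene of the table between them. It had 25.2, 33.4 and 64.9 CPM with NMDA and 89.2, 97.7 and 110.3 CPM with PBS (lowest, median and highest), again without overlap. The log2 fold change was -1.29 ± 0.24 (SE; adjusted p = 0.00142 by edgeR). Nefh encodes the heavy subunit, whose long tail projects sideways from the filament (ENSRNOG00000008716, chromosome 14, 79830362 to 79840351). Its levels were 54.9, 75.5 and 88.2 CPM with NMDA and 110.4, 128 and 153 CPM with PBS. Nefh fell by 0.79 log2 units (SE 0.13, adjusted p = 0.000472 by edgeR), and its NMDA libraries, with an SD of 14.7 CPM around a mean of 74.4, lay closer together than those of Nefl, with 40.7 around 89.0 CPM.

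Ina, the alpha-internexin gene (ENSRNOG00000020248, chromosome 1, 245896775 to 245908330), had 46.4, 57.8 and 90.5 CPM with NMDA and 115, 119.8 and 147 CPM with PBS. These groups were apart too, with a log2 fold change of -0.96 ± 0.17 (SE; adjusted p = 0.000883 by edgeR). The first 1139 bases of its span overlap Nt5c2, a nucleotidase gene with a log2 fold change of -0.13, so reads from there could count for either gene. Prph, the peripherin gene (ENSRNOG00000052880, chromosome 7, 130218357 to 130222136), had 18.6, 21.3 and 37.6 CPM with NMDA and 37.5, 42.8 and 72.8 CPM with PBS. NMDA 1, the highest NMDA library, lay just above PBS 3, the lowest PBS library, and PBS 1 stood well above the other PBS libraries. Prph fell by 0.92 (log2; SE 0.22, adjusted p = 0.00685 by edgeR).

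Both synuclein genes of the 9 fell. Sncg, the gamma-synuclein gene (ENSRNOG00000058006, chromosome 16, 9700514 to 9705368), had 25.0, 35.9 and 85.3 CPM with NMDA and 104, 112 and 149 CPM with PBS, without overlap. Its log2 fold change was -1.31 ± 0.31 (SE, adjusted p = 0.00598 by edgeR). Sncb, the beta-synuclein gene (ENSRNOG00000018039, chromosome 17, 9846802 to 9855012), had 309, 344 and 402 CPM with NMDA and 379, 441 and 465 CPM with PBS. The groups overlapped through NMDA 1 and PBS 3, and Sncb fell by 0.33 (log2; SE 0.07, adjusted p = 0.0027 by edgeR).

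Promoter windows from RefSeq (build GRCr8) were found for 5 of the 9 genes: Ina, Prph, Sncb, Sncg and Map1b. The 250 bases before the start are shown for the pair of synucleins that fell by unequal amounts, Sncg (chr16:9711337-9711586, minus strand) and Sncb (chr17:9851684-9851933, plus strand), and for the pair of filament genes that fell by like amounts, Ina (chr1:255837879-255838128, plus strand) and Prph (chr7:132097039-132097288, plus strand). Capitals mark any match, on either strand, to the TATA box TATAAA, the GC box GGGCGG, the CCAAT box CCAAT, the cAMP response motif TGACGT, the E-box CACGTG or the POU4F core AATTAAT.
Sncg: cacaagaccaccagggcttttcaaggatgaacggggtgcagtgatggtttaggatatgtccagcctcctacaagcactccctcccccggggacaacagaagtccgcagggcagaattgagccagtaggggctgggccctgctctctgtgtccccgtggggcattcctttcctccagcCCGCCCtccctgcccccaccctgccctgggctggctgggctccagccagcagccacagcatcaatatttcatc
Sncb: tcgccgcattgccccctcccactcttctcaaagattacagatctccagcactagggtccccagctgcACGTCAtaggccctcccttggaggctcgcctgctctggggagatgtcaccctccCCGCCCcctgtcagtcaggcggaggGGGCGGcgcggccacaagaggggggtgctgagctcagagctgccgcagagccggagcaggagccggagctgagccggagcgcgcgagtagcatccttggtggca
Ina: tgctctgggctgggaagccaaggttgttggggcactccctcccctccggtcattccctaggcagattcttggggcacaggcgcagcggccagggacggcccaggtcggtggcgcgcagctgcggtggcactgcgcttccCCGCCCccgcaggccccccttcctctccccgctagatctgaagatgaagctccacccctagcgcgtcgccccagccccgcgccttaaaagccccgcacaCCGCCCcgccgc
Prph: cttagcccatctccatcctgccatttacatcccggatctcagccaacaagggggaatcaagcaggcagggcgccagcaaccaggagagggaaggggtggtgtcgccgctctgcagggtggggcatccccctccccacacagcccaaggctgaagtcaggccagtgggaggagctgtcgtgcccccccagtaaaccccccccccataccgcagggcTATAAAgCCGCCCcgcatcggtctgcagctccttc
The GC box was in 4 of the 5 windows found, once in Sncg and Prph and at 2 places in Sncb and Ina, but not in that of Map1b, and 30.5% of 33469 windows of this length hold it. Prph and Map1b each have TATAAA once (12.9% of windows), and Sncb has TGACGT (6.95% of windows). Neither the CCAAT box nor the E-box nor the POU4F core was in any of the 5, and they are in 34.0%, 5.59% and 2.68% of windows. These matches describe letters and say nothing of which factors bind.

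Mapt, the tau gene (ENSRNOG00000005133, chromosome 10, 89138627 to 89236129), had 79.7, 90.4 and 222 CPM with NMDA and 127, 132 and 157 CPM with PBS. Of the NMDA libraries, 5 lay between 79.7 and 100.4 CPM, below all PBS libraries, and NMDA 1 lay above all of them. With all libraries Mapt did not pass (log2 fold change -0.32, 95% interval -0.83 to 0.19, adjusted p = 0.313 by edgeR). Leaving out NMDA 1 gave -0.65, which passed (adjusted p = 5.77e-05 by edgeR). NMDA 1 also had the lowest sum of lens markers, 64.2 CPM, against 965 to 2859 CPM in the other NMDA libraries and 545 to 2502 CPM in PBS. With the lens marker score as a covariate Mapt had a log2 fold change of -0.53 (adjusted p = 0.017 by edgeR), and with down-weighting of deviating libraries in limma voom of -0.50 (adjusted p = 0.0172). Because NMDA 1 is so extreme in lens markers, the covariate fit is not independent of leaving NMDA 1 out.

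Map1b, the MAP1B gene (ENSRNOG00000017428, chromosome 2, 30817261 to 30910317), had 557, 642 and 1623 CPM with NMDA and 574, 885 and 971 CPM with PBS. NMDA 2 was the high library, with 45781 counts, and the other NMDA libraries lay between 557 and 704 CPM, within or just below the PBS range. Map1b did not pass with all libraries (log2 fold change -0.08, 95% interval -0.65 to 0.49, adjusted p = 0.847 by edgeR). Leaving out NMDA 2 gave -0.42, which passed (adjusted p = 0.023 by edgeR). Without NMDA 1 and NMDA 2 together, a choice made after seeing the data, Mapt and Map1b both passed (-0.63 and -0.47, adjusted p = 0.0002 and 0.0189 by edgeR).

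**Figure D2:**
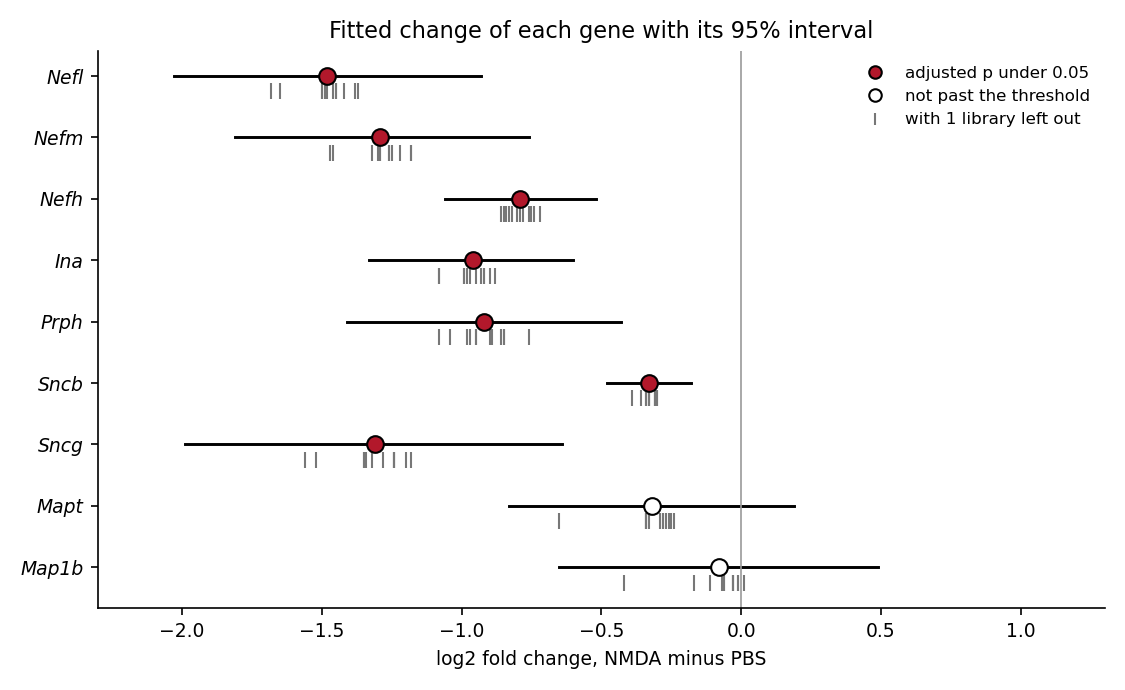
Fitted log2 fold change of each gene (NMDA minus PBS) with its 95% interval; filled points passed an adjusted p of 0.05, and grey ticks give the value with 1 library left out. Mapt and Map1b are the only intervals here that hold 0, and for each a single tick lies far to the left of the others.

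The NMDA libraries took a like order in most of the genes that fell. Relative to the PBS mean, log2 CPM of Nefl was -0.77 and -0.89 in NMDA 3 and NMDA 1, and -1.65 to -2.26 in the other NMDA libraries. Sncg had -0.47 and -0.60 in NMDA 3 and NMDA 1 and -1.70 to -2.24 in the others. NMDA 3 and NMDA 1 were the nearest to PBS in 6 of the 7 genes that fell, all but Nefh, whose NMDA 1, NMDA 2 and NMDA 3 had -0.54, -0.54 and -0.58. The mean over the 18 ganglion cell markers was -0.34 and -0.46 in NMDA 3 and NMDA 1 and -1.18 to -1.54 in the other NMDA libraries. Mapt followed another order, with 0.68 in NMDA 1 and -0.46 to -0.79 in the rest, and so did Map1b, with 0.98 in NMDA 2 and -0.23 to -0.56 in the rest. Markers of pigment epithelium summed to 731 CPM in NMDA 3 and to 40.3 to 121 CPM in the other NMDA libraries. In PBS they summed to 543 CPM in PBS 5 and to 164 to 251 CPM in the others. Whether this bears on the order of the libraries was not tested.

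**Figure D3:**
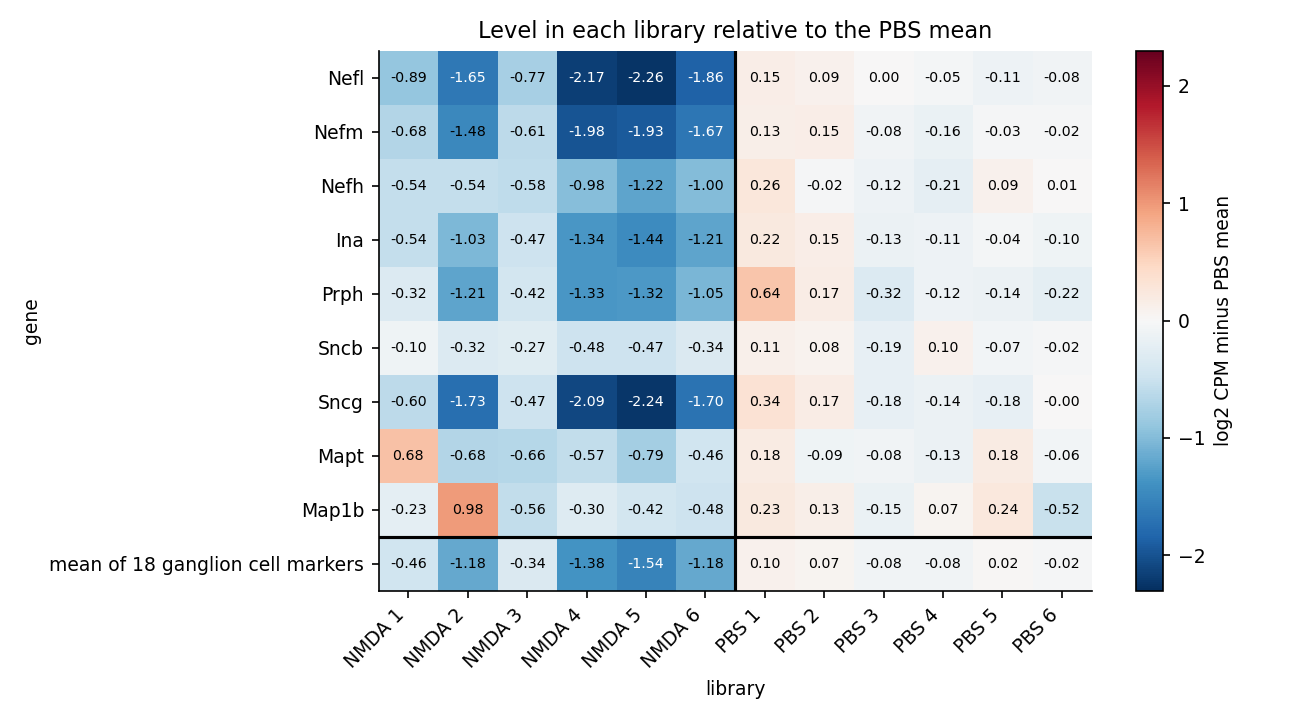
Log2 CPM of the 9 genes in each library (columns, NMDA then PBS) minus the mean of the PBS libraries, with the mean over 18 ganglion cell markers in the bottom row. NMDA 4, NMDA 5 and NMDA 6 are the lowest libraries for Nefl, with -2.17, -2.26 and -1.86, and the only NMDA fields above 0 are Mapt in NMDA 1 (0.68) and Map1b in NMDA 2 (0.98).

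Per gene length, Sncb was the most abundant of the 9 in both groups, at 227 ± 19.7 FPKM (fragments scaled to gene length and library size) with NMDA and 276 ± 21.3 FPKM with PBS (SD, n = 6 each). Nefl followed with 44.4 ± 19.8 FPKM with NMDA and 120.3 ± 8.07 FPKM with PBS, and then Sncg with 38.3 ± 20.8 FPKM with NMDA and 92.3 ± 13.9 FPKM with PBS. In PBS, Sncb lay above Nefl in every library, while the ranges of Nefl (112 to 132 FPKM) and Sncg (81.1 to 115 FPKM) overlapped. Next in PBS came Ina, Nefm, Map1b, Prph, Nefh and Mapt, from 37.3 down to 14.9 FPKM, each overlapping its neighbour in that order. In NMDA libraries Map1b came next after Sncg (25.8 ± 13.4 FPKM, with 52.9 FPKM in NMDA 2), ahead of Ina at 19.7 ± 5.59 FPKM, and Nefh was the lowest of the 9 at 10.3 ± 1.93 FPKM.

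The makeup of the filament transcripts was described without a test, and the shares depend on one another as parts of 1 sum. The 5 filament genes together summed to 66.4 to 150.2 FPKM with NMDA and 214 to 264 FPKM with PBS. Nefl made up 43.4% ± 3.48 of that sum with NMDA and 52.7% ± 1.88 with PBS, and Ina 20.2% ± 1.58 with NMDA and 16.3% ± 0.442 with PBS (SD, n = 6 each). Nefh ranged from 7.91% to 13.3% with NMDA and from 6.89% to 8.45% with PBS. The share of Nefm was 13.3% ± 0.868 with NMDA and 14.0% ± 0.593 with PBS, and its ranges overlapped. Prph made up 12.2% ± 1.26 with NMDA and 9.51% ± 1.64 with PBS, and its ranges overlapped too, with 12.6% in PBS 1.

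**Figure D4:**
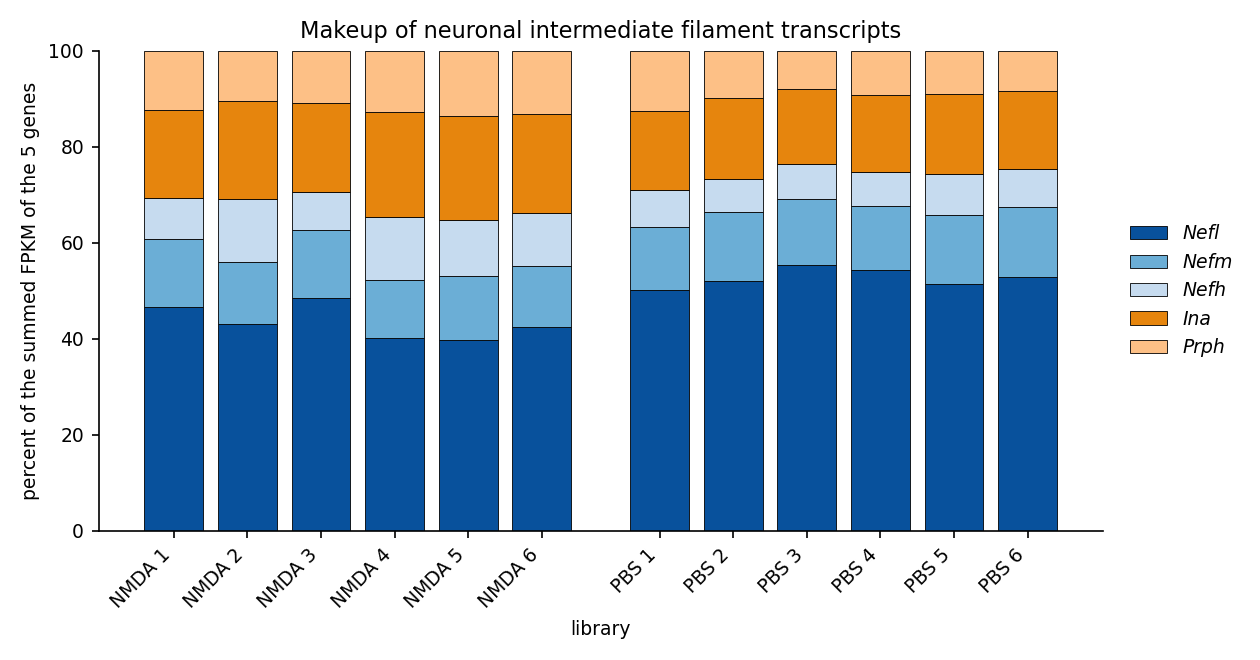
Share of each neuronal intermediate filament gene in the summed FPKM of the 5 genes, 1 bar per library, NMDA libraries left and PBS libraries right. Nefl takes 39.7% to 48.4% in NMDA libraries and 50.1% to 55.3% in PBS libraries, and Ina takes 18.3% to 21.9% in NMDA libraries and 15.6% to 16.8% in PBS libraries.

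Whether the genes changed by unequal amounts was tested on the log2 ratio of each gene's FPKM to that of Nefl within a library, in which library scaling cancels (8 ratios, exact permutation test, two-sided, with every assignment of libraries enumerated and a smallest possible p of 0.00216). Of the 8 ratios, 7 were higher with NMDA and differed, as did 96.7% of all tested genes measured against Nefl (adjusted over those genes). The Nefm to Nefl ratio moved least of the 7, at -1.70 ± 0.06 with NMDA and -1.91 ± 0.08 with PBS (SD, n = 6 each; exact p = 0.00216, adjusted p = 0.00255), with all NMDA libraries above all PBS libraries. The Nefh to Nefl ratio was -2.01 ± 0.42 with NMDA and -2.80 ± 0.15 with PBS (exact p = 0.00433, adjusted p = 0.00489), and the Ina to Nefl ratio -1.10 ± 0.23 with NMDA and -1.69 ± 0.08 with PBS (exact p = 0.00216, adjusted p = 0.00255). NMDA 1 and NMDA 3 had the Nefh to Nefl ratios nearest to PBS, -2.45 and -2.62. Sncb rose against Nefl, with all NMDA libraries above all PBS libraries, to 2.46 ± 0.52 with NMDA, against 1.19 ± 0.11 with PBS (exact p = 0.00216, adjusted p = 0.00255). The Sncg to Nefl ratio did not differ past the threshold, at -0.27 ± 0.15 with NMDA and -0.39 ± 0.14 with PBS (difference 0.13, exact p = 0.16, adjusted p = 0.161).

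A second set of 9 differences measured each gene against the mean log2 CPM of the 18 ganglion cell markers in the same library (two-sided exact permutation test, adjusted over all tested genes, of which 89.6% differed). Nefl and Nefm fell more than that mean, by 0.59 and 0.38 on the log2 scale, with all NMDA libraries below all PBS libraries (exact p = 0.00216 for both). Sncg fell by 0.46 relative to it (exact p = 0.00866). Single markers had log2 fold changes from -1.72 (Slc17a6) to 1.42 (Gap43), with a median of -0.92. Nefl and Nefm, at -1.48 and -1.29, lay within that range, so they did not fall beyond every marker. Ina, Prph and Nefh had differences of 0.01, 0.07 and 0.20 and did not pass (exact p = 0.92, 0.626 and 0.171). Sncb was 0.68 above the markers' change (exact p = 0.00433). Mapt and Map1b were 0.60 and 0.84 above it (exact p = 0.0173 and 0.0325). Of 16 alternatives, 11 ended that call for Mapt and 12 for Map1b. One of the 18 markers, Gap43, a growth cone gene that axon injury switches on, rose by 1.42 (log2; adjusted p = 2.46e-05 by edgeR); without it, a choice made after seeing the data, the same 6 genes differed, Nefl and Nefm by -0.44 and -0.24.

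Genes whose course over the 12 libraries lay nearest to that of each of the 9 were taken by the root mean square difference of log2 CPM minus the PBS mean, among 10503 named genes that averaged 3 or more in log2 CPM. Nearest to Nefl were Tmem163, a zinc transporter gene, Calb2, the calretinin gene, and Rbpms2, an RNA-binding protein gene (differences of 0.111, 0.127 and 0.128 log2 units), and the same 3 were nearest to Sncg (0.121, 0.159 and 0.133). Among the 9, Sncg was the nearest to Nefl (0.16) and to Nefm (0.153). Nearest to Nefm were Kcnip2, a potassium channel subunit gene, Camk2a, a calcium-dependent kinase gene, and Thy1, a surface glycoprotein gene (0.108, 0.122 and 0.135). Nell2, Cacnb3 and Myt1l were nearest to Ina (0.0715, 0.0793 and 0.0942), and Tubb3, Cntn2 and Slc29a4 to Prph (0.138, 0.147 and 0.168). Kcnc4, Pianp and Jph3 were nearest to Nefh (0.115, 0.116 and 0.12), and Ntm, Srrm3 and Slc4a3 to Sncb (0.0548, 0.058 and 0.0581). For Mapt (Stk32b and Larp6, at 0.235 and 0.242) and Map1b (Frmd3, Ssc4d and Mmp15, at 0.269 to 0.306) even the nearest genes were farther away than for the other 7.

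Around these 9 genes, 6 lists of partner genes, chosen with earlier results of these data known, were read from the same fit. The shares to set beside the counts of every list are 17.5% lower and 20.4% higher over all genes tested. Whether a list differs from those shares was not tested. Of 13 other intermediate filament genes, 4 rose and none fell (median 0.05). Vim, the vimentin gene, rose to 874 ± 152 CPM with NMDA, against 317 ± 74.1 CPM with PBS (SD, n = 6 each; log2 fold change 1.46, SE 0.16, adjusted p = 7.54e-05 by edgeR). Gfap and Nes, genes of glial and progenitor filaments, rose by 1.50 and 2.28, and Lmna, a nuclear lamin gene, by 1.14 (log2). All 4 had every NMDA library above every PBS library, as did 9.43% of all genes tested.

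Of 23 other microtubule-associated protein genes, 12 fell and 4 rose (median -0.13). Map1a, a relative of Map1b found in mature neurons, fell by 0.74, and Dcx, the doublecortin gene, by 0.79 on the log2 scale. Dclk1, the doublecortin-like kinase gene, rose to 344 ± 69.5 CPM with NMDA, against 109.6 ± 16.6 CPM with PBS (SD, n = 6 each; log2 fold change 1.65, SE 0.14, adjusted p = 1.69e-05 by edgeR), and Mapre1, a gene of a protein of growing microtubule ends, rose by 0.69. Of 10 tubulin genes, 3 fell and 3 rose (median -0.05). Tubb4a fell by 0.63, and Tubb6, Tubb4b and Tubb5 rose by 2.29, 0.45 and 0.37. Tubb3, the neuronal beta-tubulin gene that was nearest to Prph above, fell by 0.89.

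Of 20 genes of kinases and phosphatases that act on tau and MAP1B, 10 fell and 1 rose (median -0.09), and with scaling by library size only 6 fell and 3 rose. The single rise, of Csnk1d, was lost under several alternatives. Cdk5r1 and Cdk5r2, the activators of the neuronal kinase CDK5, fell by 0.59 and 0.24, Ttbk1, a tau tubulin kinase gene, by 0.60 and Mark1, a microtubule affinity kinase gene, by 0.41 (log2). Of 14 spectrin, ankyrin and linker genes, 9 fell and none rose (median -0.27). Cntnap1, an axonal adhesion gene, Add2, an adducin gene, and Sptbn4, a beta-spectrin gene, fell by 0.61, 0.60 and 0.48. With scaling by library size only, 1 of the 14 rose. Of 16 genes of neurofilament transport and turnover, 8 fell and 3 rose (median -0.12), and 5 fell with scaling by library size only. Dync1i1, Kif5c and Klc1, genes of dynein and kinesin subunits, fell by 0.50, 0.36 and 0.26, and Capn2, a gene of a calcium-activated protease that cleaves neurofilaments, rose by 0.60.

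**Figure D5:**
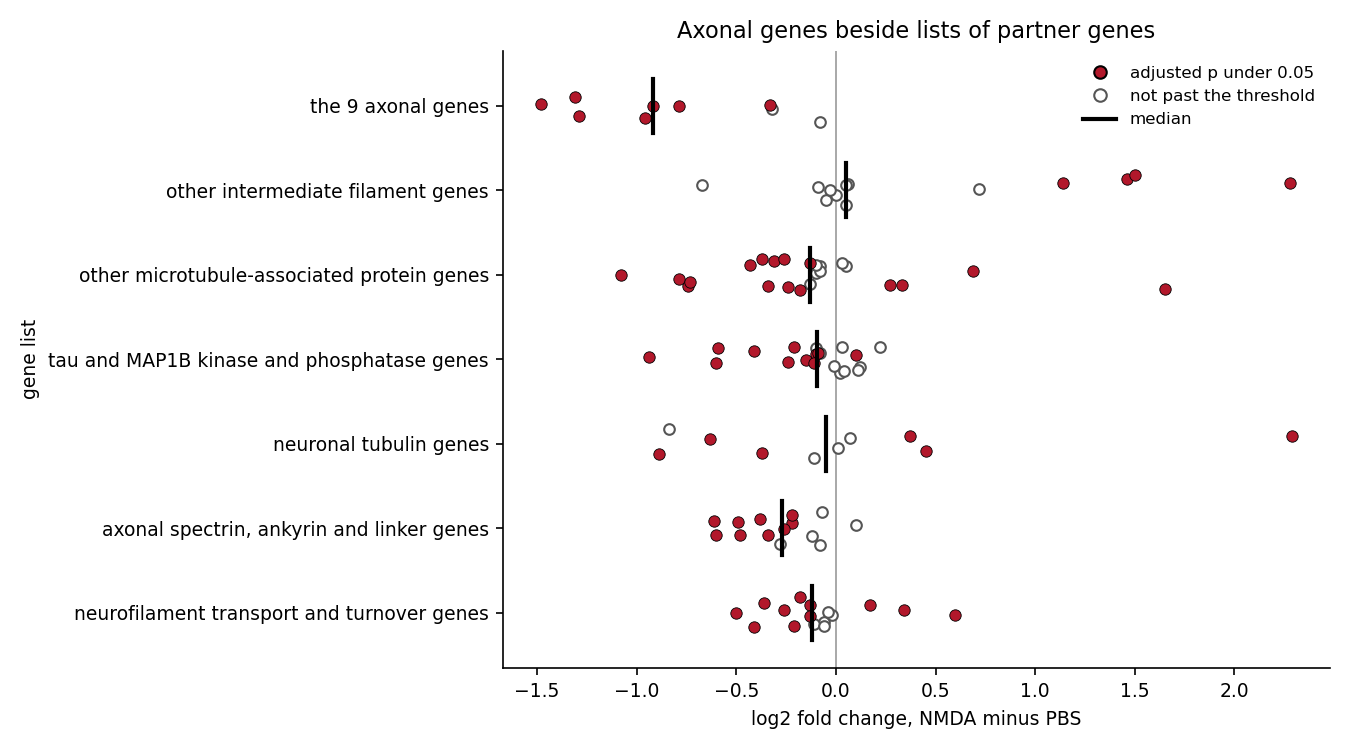
Log2 fold change (NMDA minus PBS) of the 9 axonal genes and of the tested genes of 6 partner lists; filled points passed an adjusted p of 0.05 and black bars are medians. The median of the 9 genes is -0.92, and 4 of the 13 other intermediate filament genes lie to the right, at 1.14 to 2.28.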

How the data were processed

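Counts per gene were deposited as whole numbers and FPKM beside them, per the file headers. Bowtie2, RSEM 1.3.1 and DESeq2 1.4.5 are named in the submitters' processing notes without roles, and build and strand setting are not given in the sources used here. Groups and numbers come from the labels, and each label names 1 rat.

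Genes kept by filterByExpr (count minimum 10, total minimum 15) were scaled with TMM factors and tested with edgeR 4.0.16 in R 4.3.3 (robust quasi-likelihood fit, group as the only term, SE from the F statistic). CPM were computed from the counts, and log2 CPM used a prior count of 2. Alternatives used limma 3.58.1, DESeq2 1.42.0, other scalings and filters, a replicate block, a lens covariate and left-out libraries. Adjusted p-values of the ratios were computed over all tested genes on log2 CPM. Ratio calls adjusted over the ratios alone or over all tested genes were the same.

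All 9 genes were named. From each partner list up to 4 genes with the smallest adjusted p were named; some genes and 1 partner list are not reported here. Tubb3, Gap43, Slc17a6, Csnk1d and Nt5c2 were named after their values were seen. The genes and lists were chosen with earlier results of these data known. No libraries had identical counts. Intervals of the fits are limits on the fitted change, with an SE drawn from the variation between rats. They are not ranges of single rats. Depth limits the 9 genes little, since each had at least 504 counts in every library.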

Additional observations from a re-analysis of the deposited data

Results flagged for a closer look

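Of 18 sets of 6 libraries looked at (each of the 9 genes in each group), 2 held a library far from the others, where about 5% of sets would by chance. Mapt in NMDA 1 stood above the other NMDA libraries by a gap of 0.854 of the group's whole range, with 222 CPM in NMDA 1 and at most 100.4 CPM in the other NMDA libraries. Map1b in NMDA 2 stood above them by 0.863 of the range, with 1623 CPM in NMDA 2 and at most 704 CPM in the other NMDA libraries.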

How the results depend on the processing

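The calls of Nefl, Nefm, Nefh, Ina, Prph, Sncb and Sncg and their directions held under all alternatives run, other tools, scalings, filters, covariates and left-out libraries included, with log2 fold changes between -1.68 and -1.37 for Nefl and between -0.39 and -0.30 for Sncb when 1 library was left out. Mapt passed under 5 of 26 alternatives and Map1b under 2. Those for Mapt left out NMDA 1, down-weighted deviating libraries or used the lens score, and are not independent of one another. Those for Map1b left out NMDA 2. When 1 library was left out, Map1b lay between -0.42 and 0.01. Its direction turned without NMDA 3 (0.01), without NMDA 1 and NMDA 3 together (0.05) and without PBS 5 and NMDA 3 together (0.05), and it did not pass there; the cause was not tested. Of the 9 genes, those with groups apart numbered 5 to 8 when 1 library was left out, with 8 without NMDA 1, in which the remaining Mapt, Prph and Sncb values no longer met the PBS range. The share over all genes is not given for those settings. Against the ganglion cell markers, the difference of Ina turned to -0.12 and that of Prph to -0.06 with the median of the markers, and that of Ina, between -0.02 and 0.03 when 1 library was left out, to -0.02 without NMDA 2 and to -0.01 without NMDA 5, PBS 5 or PBS 6, and to -0.01 without NMDA 1 and NMDA 2 together, none past the threshold. Same-numbered libraries did not deviate together (correlations between -0.154 and 0.271), 1 of 6 matching best its own number, so the numbers were not taken as a pairing; with the replicate block 5593 genes were called in place of 6167, 7 of the 9 genes fell, as without it, and 7 of 8 ratios to Nefl differed. With scaling by library size only, the median over all genes was 0.06 in place of 0.01.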

Other observations

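Mapt and Map1b were not the only genes raised in 1 NMDA library. Among 8625 genes with a mean of at least 20 CPM, ranked after seeing the data by the lead of NMDA 1 over the next NMDA library, Eef1akmt2, a methyltransferase gene, came before Mapt, with 141 CPM in NMDA 1, 51.1 to 55.6 CPM in the other NMDA libraries and 76.1 to 164 CPM in PBS. Map2k7, a stress kinase gene, came after it, with 192 CPM in NMDA 1, 82.2 to 97.3 CPM in the other NMDA libraries and 89.0 to 209 CPM in PBS. By the lead of NMDA 2, the mitochondrially encoded Mt-atp6 came first, with 3426 CPM in NMDA 2, 464 to 966 CPM in the other NMDA libraries and 766 to 1007 CPM in PBS, and Map1b second. The cutoff for a library far from the others was also applied to 11273 genes that averaged 3 or more in log2 CPM. This cutoff is the gap that about 5% of sets would pass by chance. It is smaller than the gaps of Mapt (0.854 of the range) and Map1b (0.863). NMDA 1 stood above the other NMDA libraries past this cutoff in 1.44% of these genes, NMDA 3 in 1.10% and NMDA 2 in 0.373%.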
